A study of Mus musculus with 27 samples.

Results

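Perineuronal nets are built from a small family of genes, and 8 of them were followed here in the mouse brain: the lecticans Acan, Bcan, Ncan and Vcan, the link proteins Hapln1, Hapln2 and Hapln4, and tenascin-R (Tnr). They were taken by symbol from the 52636 gene identifiers of the count tables, and all 8 were found. RNA was sequenced from frontal cortex (FX) and striatum (STR) of mice about 2.5 months old, all on the 129S1 strain. Wild-type mice gave 6 FX libraries (3 female, 3 male) and 7 STR libraries (3 female, 4 male). Igf2enh-/- mice, homozygous for a 4.9 kb deletion between H19 and Igf2, gave 6 FX libraries (3 female, 3 male) and 8 STR libraries (4 of each sex). The deletion is carried by every cell of the animal and left 1 loxP site behind, after an Hprt-CRE cross had removed the selection cassette. The labels do not say which FX and STR library came from the same mouse, and p-values between regions treat them as separate mice.

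A perineuronal net is a lattice of extracellular matrix that wraps the cell body and proximal dendrites of some neurons, above all of parvalbumin-expressing interneurons of the cortex. Long chains of hyaluronan leave the cell surface, lecticans (proteoglycans that carry chondroitin sulfate) bind the chains by their globular head, link proteins fasten that contact, and tenascin-R ties the far ends of the lecticans together. The nets form as critical periods close and limit later plasticity, and the same lecticans also sit around synapses, in the loose matrix between cells and at nodes of Ranvier.

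The genes lie in pairs in the genome. Each lectican is the direct neighbour of a link protein gene, with 0 annotated genes between them: Acan and Hapln3 on chromosome 7 are 1927 bp apart, Ncan and Hapln4 on chromosome 8 are 2222 bp apart, Bcan and Hapln2 on chromosome 3 are 18382 bp apart, and Vcan and Hapln1 on chromosome 13 are 43476 bp apart (RefSeq, GRCm38.p6). Only Bcan and Hapln2 share a strand. RefSeq also lists Gm26633 across part of Acan, Mir7066 in Ncan, Gm8546 in Hapln1 and Gm31348 in Tnr, and reads from a shared stretch cannot be told apart here. Promoter windows of Bcan and Hapln2 are shown because these neighbours had unlike regional patterns, Bcan being nearly level between FX and STR and Hapln2 several times higher in STR. Both windows are 300 bases long and on the minus strand, at chr3:88000307-88000606 for Bcan and chr3:88027462-88027761 for Hapln2. That of Hapln2 runs from 250 bases before to 50 bases after the start of the gene in RefSeq. The Bcan window lies inside the gene as listed, whose start on the minus strand is at 88002175, so it is not a window around that start. Capitals mark the letters of motifs found on either strand: the GC box (GGGCGG or CCGCCC), the core of SOX factor sites (ACAAT or ATTGT) and the E-box CAGCTG. The capital stretches do not overlap.
Bcan: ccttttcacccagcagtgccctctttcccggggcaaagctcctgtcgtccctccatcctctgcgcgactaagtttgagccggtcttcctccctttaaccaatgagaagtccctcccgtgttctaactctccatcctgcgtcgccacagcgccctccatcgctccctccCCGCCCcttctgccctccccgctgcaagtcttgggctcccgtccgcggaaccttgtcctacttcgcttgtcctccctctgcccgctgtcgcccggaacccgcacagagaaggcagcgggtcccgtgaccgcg
Hapln2: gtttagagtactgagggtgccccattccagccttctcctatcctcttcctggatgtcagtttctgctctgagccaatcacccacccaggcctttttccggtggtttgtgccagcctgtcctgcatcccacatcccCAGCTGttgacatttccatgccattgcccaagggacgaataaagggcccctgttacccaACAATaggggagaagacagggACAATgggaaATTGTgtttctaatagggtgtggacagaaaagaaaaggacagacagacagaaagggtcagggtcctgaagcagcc

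The Bcan window held 1 GC box, 24 CpG dinucleotides and 64% G and C. That of Hapln2 held 3 SOX cores and 1 CAGCTG E-box, no GC box, 2 CpG dinucleotides and 52% G and C. Among 32851 promoter windows of the same length, 35.7% held a GC box, 31.0% a SOX core, 16.3% a CAGCTG E-box and 13.6% a TATA box (TATAAA or TTTATA), with medians of 52.7% G and C and 7 CpG. Entries matched 7 of the 8 genes. Of the others, Acan had the most CpG (31, with 74% G and C), followed by Vcan (12), Ncan (9), Hapln1 (3) and Tnr (3). A match of letters is a description and not a binding site.

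Totals ran from 23686945 to 33926904 counts per library. Levels below are CPM (counts scaled to the library total) adjusted by the trimmed mean of M-values over all 27 libraries (TMM-scaled CPM), and marker genes followed the region labels. The 10 medium spiny neuron markers summed to 271 to 323 CPM in FX and 4452 to 11933 CPM in STR, and the 10 cortical projection neuron markers to 2360 to 2592 CPM in FX and 638 to 1491 CPM in STR. STR libraries differed among themselves. Slc17a7, the vesicular glutamate transporter of cortical projection neurons, ran from 13.6 CPM (library 22) to 750 CPM (library 20), and 5 STR libraries (16, 20 and 26 of wild-type, 19 and 23 of Igf2enh-/- mice) were above 300 CPM. Library 15, from an Igf2enh-/- STR, stood apart in choroid plexus genes, whose sum was 4617 CPM there against a median of 217 CPM in its group. Igf2, next to the deletion, was at 51.9 to 107 CPM in wild-type and 88.3 to 173 CPM in Igf2enh-/- FX, and at 34.1 to 44.0 CPM in wild-type and 46.0 to 259 CPM in Igf2enh-/- STR. Its medians in wild-type and Igf2enh-/- mice were 71.3 and 119 CPM in FX and 37.0 and 51.8 CPM in STR. The highest Igf2enh-/- STR value thus lay far above the middle of its group. Results for the 8 genes that rest on these STR libraries are given with and without them.

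**Figure D1:**
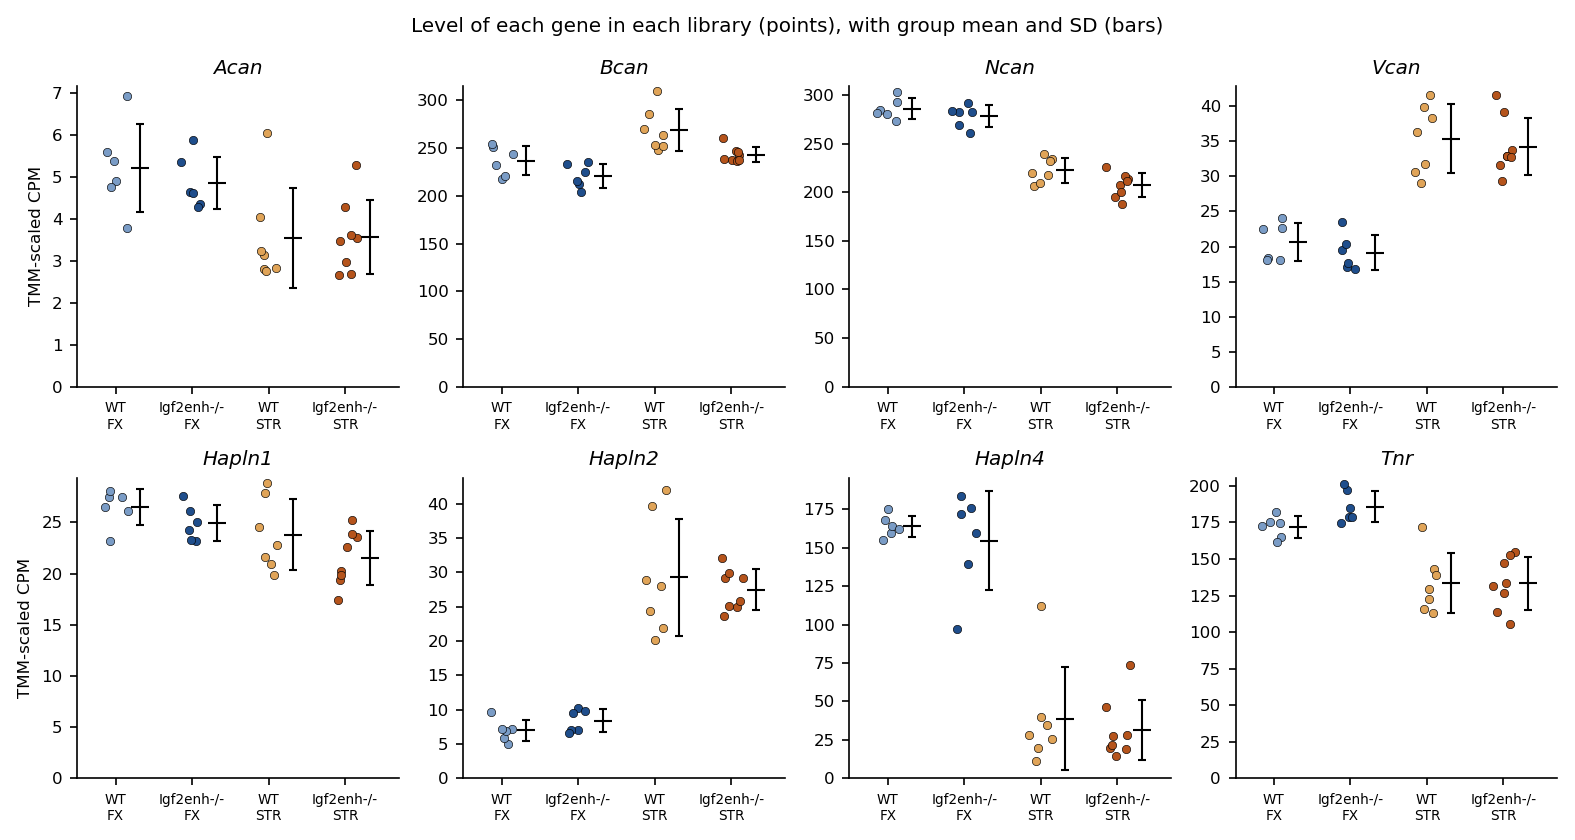
TMM-scaled CPM (vertical axis, from 0) of the 8 genes in every library (points), with the mean and SD of each of the 4 groups beside them (bars). Hapln2 is the gene that is higher in every STR library than in any FX library by the widest margin, and Hapln4 shows the reverse, apart from 1 wild-type STR library at 112 CPM that lies above the lowest Igf2enh-/- FX library at 97.1 CPM.

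Between regions, the link proteins Hapln2 and Hapln4 differed most, in opposite directions, Hapln2 being about 4.2 times higher and Hapln4 0.237 times as high in wild-type STR as in FX. The lecticans and tenascin-R differed by less. In wild-type mice, 7 of the 8 genes passed the test between STR and FX (edgeR quasi-likelihood F-test, Benjamini-Hochberg adjusted over all genes, adjusted p under 0.05), in a comparison where 67.7% of the 13414 genes tested passed. Of these, 3 were higher in STR (Bcan, Vcan and Hapln2; 34.5% of all genes) and 4 were lower (Acan, Ncan, Hapln4 and Tnr; 33.2% of all genes). A log2 difference of at least 1 was reached by Hapln2 and Hapln4, which is 2 of 8, while 8.44% of all genes passed with such a difference. In Igf2enh-/- mice all 8 genes passed, 3 higher and 5 lower in STR, beside 68.9% of all genes, 34.5% higher and 34.5% lower, and the same 2 genes reached a log2 difference of at least 1 (9.11% of all genes did). Most genes passed in this comparison, so the number of members that passed says little about them. The median log2 difference of the 8 genes was -0.26 in wild-type and -0.32 in Igf2enh-/- mice, against 0.01 and 0.00 over all genes. With males alone, which leaves 3 FX and 4 STR libraries, 3 of the 8 genes passed in wild-type mice (Ncan, Vcan and Hapln2). In that setting 5415 of the 13673 genes tested passed, so this count also says little about the members. In bulk tissue, fewer cells of a type and less RNA per cell cannot be told apart.

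**Figure D2:**
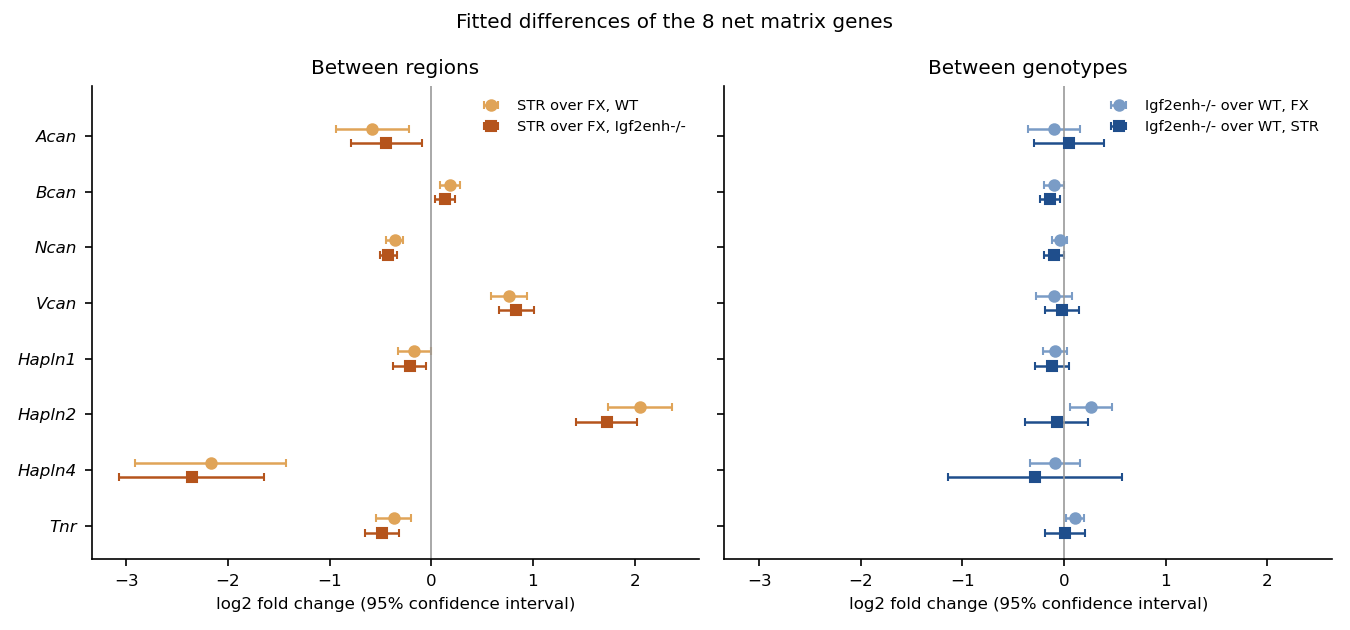
Log2 fold changes with 95% confidence intervals (horizontal axis) of the 8 genes between regions (left) and between genotypes (right), on the same scale. Between regions the intervals of Hapln2 (2.05 and 1.72) and Hapln4 (-2.17 and -2.36) lie farthest from 0, and between genotypes the estimates run from -0.29 to 0.26.

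Levels per kilobase of exon allow genes to be compared as far as their annotated exon lengths hold. By this measure Bcan was the most abundant of the 8 in all 4 groups. Wild-type FX held 72.5 ± 4.69 CPM per kb of Bcan (SD, n = 6), 45.8 ± 1.96 of Hapln4, 39.7 ± 1.47 of Ncan and 34.7 ± 1.5 of Tnr, and no library of one of these genes overlapped those of the next. A wide gap followed, with Hapln1 at 5.24 ± 0.348, Hapln2 at 2.94 ± 0.667, Vcan at 1.42 ± 0.188 and Acan at 0.709 ± 0.142 CPM per kb. In wild-type STR the order became Bcan (82.3 ± 6.75, n = 7), Ncan (30.9 ± 1.76), Tnr (27.0 ± 4.08), Hapln2 (12.4 ± 3.59), Hapln4 (10.8 ± 9.37), Hapln1 (4.71 ± 0.683), Vcan (2.44 ± 0.340) and Acan (0.482 ± 0.162). There the ranges of Ncan and Tnr overlapped, as did those of Hapln2, Hapln4 and Hapln1. Hapln2 thus went from rank 6 to rank 4 and Hapln4 from rank 2 to rank 5. In Igf2enh-/- FX the ranges of Hapln4, Ncan and Tnr ran into each other, and the order of the means was as in wild-type in both regions.

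The lectican family had nearly the same summed level in both regions, 114 ± 5.12 CPM per kb in wild-type FX (SD, n = 6) and 116 ± 7.34 in wild-type STR (n = 7). In Igf2enh-/- mice it was 108 ± 4.05 (n = 6) and 106 ± 3.87 CPM per kb (n = 8). Brevican made up 63.3% ± 1.63 of it in wild-type FX and 70.8% ± 1.83 in wild-type STR, and neurocan 34.8% ± 1.55 and 26.7% ± 1.92. The highest library share of Bcan in FX of either genotype was 65.2%, under the lowest in STR, 68.1%. Versican went from 1.25% ± 0.192 to 2.10% ± 0.271 of the family, and aggrecan from 0.619% ± 0.116 to 0.409% ± 0.105, and only the shares of aggrecan overlapped between the regions.

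The link proteins, in contrast, differed both in sum and in make-up. Together with Hapln3, the fourth of the family, they summed to 54.6 ± 2.03 CPM per kb in wild-type FX and 28.5 ± 12.3 in wild-type STR. Hapln4 was 84.0% ± 1.45 of the family in wild-type FX and 34.2% ± 13.7 in wild-type STR. Hapln2 was 5.38% ± 1.15 in FX and 45.5% ± 10.6 in STR, and Hapln1 9.62% ± 0.765 and 17.9% ± 4.12. The Igf2enh-/- groups had 82.1% ± 3.59 and 32.8% ± 12.6 for Hapln4, and 6.90% ± 1.44 and 47.6% ± 10.3 for Hapln2. Across genotypes, no FX library had more than 8.51% of Hapln2 and no STR library less than 29.6%. These shares are descriptions and were not tested on their own.

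**Figure D3:**
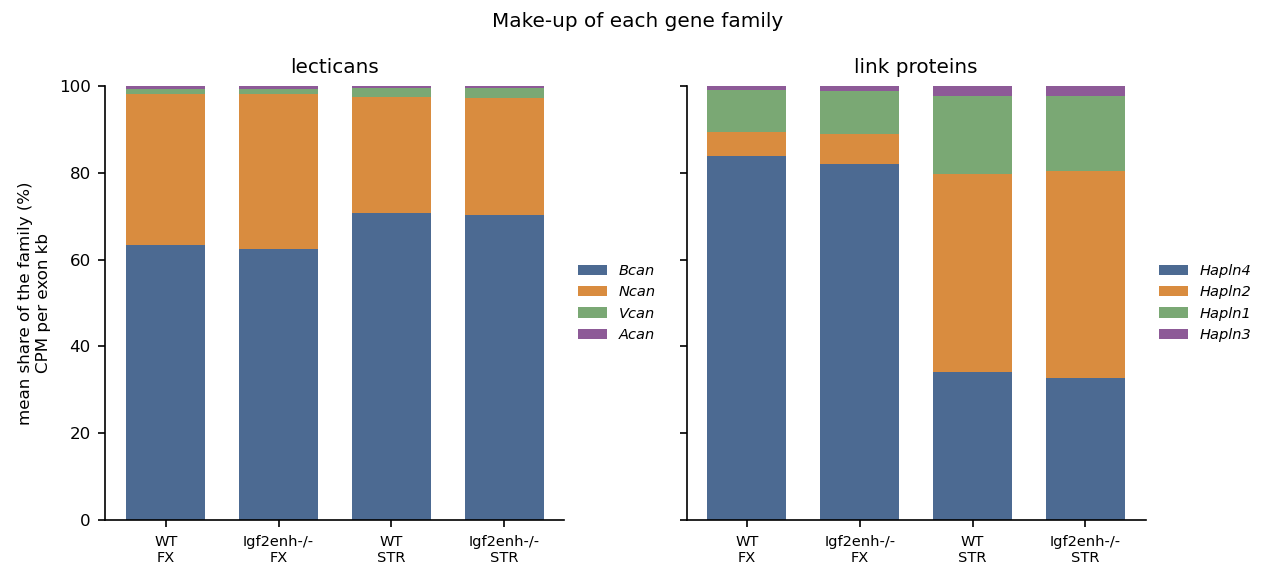
Mean share (%) of each lectican (left) and each link protein (right) in the summed CPM per exon kilobase of its family, in the 4 groups. Bcan and Ncan hold nearly all of the lectican sum everywhere, whereas Hapln4 is 84.0% of the link protein sum in wild-type FX and 34.2% in wild-type STR, and Hapln2 is 5.38% and 45.5%.

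Aggrecan (Acan, chr7:79053226-79115099, plus strand), the lectican most closely tied to nets around parvalbumin interneurons, was the least abundant member. Its level in wild-type FX was 3.78 CPM in the lowest library, 5.13 in the median and 6.93 in the highest, and in wild-type STR 2.74, 3.14 and 6.05 CPM. Igf2enh-/- mice had 4.29, 4.62 and 5.87 CPM in FX and 2.67, 3.51 and 5.27 CPM in STR. The regions overlapped in both genotypes, because of the STR libraries 20 and 22 in wild-type and library 23 in Igf2enh-/- mice, yet 5 of 7 and 7 of 8 STR libraries lay below every FX library of their genotype. The log2 fold change of STR over FX was -0.58 (standard error, SE, 0.176, adjusted p = 0.00529) in wild-type and -0.44 (SE 0.170, adjusted p = 0.0232) in Igf2enh-/- mice. Without the 5 STR libraries above 300 CPM of Slc17a7 these were -0.70 and -0.62, and without the Igf2enh-/- FX library 5 the latter was -0.36 with an adjusted p of 0.0748, which did not pass. Females alone gave -0.99 in wild-type and -0.66 in Igf2enh-/- mice. Males alone gave -0.22 (adjusted p = 0.536) and -0.23 (adjusted p = 0.341), which did not pass. Whether the sexes differ was not tested. Acan had the lowest raw counts of the 8 genes, down to 66 in 1 library.

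Brevican (Bcan, chr3:87987531-88002175, minus strand), a brain-specific lectican made in large part by astrocytes, differed little between regions. Wild-type libraries ran from 218 to 254 CPM in FX (median 238) and from 249 to 310 CPM in STR (median 264), with 4 of 7 STR libraries above all FX libraries. Igf2enh-/- libraries ran from 204 to 236 CPM in FX (median 220) and from 236 to 261 CPM in STR (median 241), without overlap. The log2 fold change was 0.18 (SE 0.0493, adjusted p = 0.00209) in wild-type and 0.14 (SE 0.0478, adjusted p = 0.0123) in Igf2enh-/- mice.

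Neurocan (Ncan, chr8:70093085-70120863, minus strand), a lectican most abundant in the young brain, was lower in STR in every library. Its levels were 273, 283 and 303 CPM (lowest, median, highest) in wild-type FX against 206, 220 and 239 CPM in wild-type STR. The Igf2enh-/- values were 261, 283 and 291 CPM in FX and 188, 209 and 226 CPM in STR. It gave a log2 fold change of -0.36 (SE 0.0423, adjusted p = 5.23e-08) in wild-type and -0.43 (SE 0.0409, adjusted p = 1.71e-09) in Igf2enh-/- mice.

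Versican (Vcan, chr13:89655309-89743027, minus strand), a large lectican that oligodendrocyte precursors and vascular cells express and that occurs at nodes of Ranvier, went the other way. In wild-type mice it was at 18.1, 20.4 and 24.0 CPM in FX and 29.0, 36.3 and 41.6 CPM in STR, and in Igf2enh-/- mice at 16.8, 18.6 and 23.4 CPM and 29.4, 32.9 and 41.6 CPM. No STR library fell into the FX range. The log2 fold change was 0.77 (SE 0.0868, adjusted p = 3.03e-08) in wild-type and 0.84 (SE 0.0850, adjusted p = 4.23e-09) in Igf2enh-/- mice. The gene overlaps Gm16318 and Gm4117 on the other strand in the annotation, and with the strand setting of the counting not given in the sources used here, their reads cannot be told apart from its own. Of 9 oligodendrocyte precursor markers, 6 passed as higher in wild-type STR and 5 in Igf2enh-/- STR (34.5% of all genes in each), with median log2 differences of 0.37 and 0.23. The part of this in the level of Vcan was not tested.

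Of the 3 link proteins among the 8, Hapln1 (chr13:89540529-89611832, plus strand), the cartilage link protein that nets need to form, had the smallest difference between regions. It was at 23.2, 27.0 and 28.1 CPM in wild-type FX and 19.9, 22.8 and 28.8 CPM in wild-type STR. For Igf2enh-/- mice the values were 23.2, 24.7 and 27.6 CPM and 17.5, 21.4 and 25.2 CPM. The ranges of the regions overlapped in both genotypes. The log2 fold change of -0.17 (SE 0.0792, adjusted p = 0.0636) in wild-type mice did not pass, and that of -0.21 (SE 0.0769, adjusted p = 0.0160) in Igf2enh-/- mice did. The difference between these estimates was itself -0.05 (SE 0.110), so the genotypes were not shown to differ. The calls rest on single libraries: wild-type mice passed without FX library 6, STR library 20 or STR library 22 (adjusted p from 0.0214 to 0.0488), and Igf2enh-/- mice did not pass without FX library 3 (-0.16, adjusted p = 0.0700).

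Hapln2 (chr3:88020558-88027511, minus strand), a link protein of nodes of Ranvier that oligodendrocytes express, had the largest rise of the 8. In wild-type FX it lay at 5.00, 7.00 and 9.71 CPM and in wild-type STR at 20.1, 28.1 and 42.0 CPM, while Igf2enh-/- libraries had 6.67, 8.32 and 10.3 CPM in FX and 23.6, 27.4 and 32.1 CPM in STR. The lowest STR library was above the highest FX library in both genotypes. Group means were 4.2 times higher in STR than in FX in wild-type and 3.27 times higher in Igf2enh-/- mice, and the log2 fold changes were 2.05 (SE 0.152, adjusted p = 2.49e-11) and 1.72 (SE 0.146, adjusted p = 2.06e-10). Leaving out any single library kept them between 1.97 and 2.14 and between 1.68 and 1.77. Its neighbour Bcan, on the same strand, had differences of 0.18 and 0.14 in the same libraries.

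Myelin genes were also higher in STR than in FX. All 12 oligodendrocyte markers passed as higher in STR in both genotypes, each by a log2 difference of at least 1. Over all genes, 34.5% passed as higher in each genotype, and 8.44% and 9.11% passed with such a difference in either direction. The medians of the markers were 1.82 in wild-type and 1.72 in Igf2enh-/- mice, close to the values of Hapln2 itself. Their summed level was 1058 to 2257 CPM in FX and 5168 to 11260 CPM in STR, and none was at 0 in any group. Mbp, which encodes myelin basic protein, had log2 fold changes of 1.90 and 1.71. Within groups, library 20 had the highest level of both Mbp (4287 CPM) and Hapln2 (42.0 CPM) among wild-type STR libraries, and library 22 was next in both (3509 and 39.7 CPM). The order was not the same among Igf2enh-/- STR libraries, where library 17 had the most Mbp (2447 CPM) and the least Hapln2 (23.6 CPM). How much of the difference in Hapln2 goes with the number of oligodendrocytes was not tested.

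Hapln4 (chr8:70083529-70090862, plus strand), a brain link protein that binds brevican at inhibitory synapses and in nets, had the largest fall and the widest spread. FX libraries of wild-type mice lay close together, at 155, 163 and 175 CPM, while their STR libraries were at 11.4, 28.0 and 112 CPM. In Igf2enh-/- mice the levels were 97.1, 165 and 184 CPM in FX and 14.5, 24.4 and 73.5 CPM in STR. Within each genotype the regions did not overlap, although the spread over STR libraries was 86.4% of the mean in wild-type and 62.7% in Igf2enh-/- mice, against 4.29% in wild-type FX. Group means in STR were 0.237 and 0.203 of those in FX, and the log2 fold changes were -2.17 (SE 0.361, adjusted p = 9.40e-06) and -2.36 (SE 0.346, adjusted p = 1.45e-06).

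The STR libraries high in Hapln4 were those high in Slc17a7. The limit of 300 CPM was chosen after seeing the data, and libraries 18 (283 CPM of Slc17a7) and 21 (296 CPM) lay just under it. With at most 300 CPM of Slc17a7, Hapln4 ran from 11.4 to 28.0 CPM in 4 wild-type and from 14.5 to 28.4 CPM in 6 Igf2enh-/- libraries. Above it, the 3 wild-type libraries had 34.5 to 112 CPM and the 2 Igf2enh-/- libraries 46.3 and 73.5 CPM, so that the ranges did not meet. At the low end the order broke: libraries 14 and 22 had 17.5 and 13.6 CPM of Slc17a7, the least of all, with 19.8 and 25.7 CPM of Hapln4, above library 24 (88.9 CPM of Slc17a7 and 11.4 CPM of Hapln4). The 5 high libraries were also those with the most Hapln4 in STR, so leaving them out had to widen the difference between regions. Without them the log2 fold change of Hapln4 between regions was -2.94 (adjusted p = 4.12e-11) in wild-type and -2.82 (adjusted p = 4.95e-12) in Igf2enh-/- mice. Without library 20 alone it was -2.62 in wild-type mice. Of the 10 cortical projection neuron markers, 7 were tested and all 7 passed in both genotypes, beside 67.7% and 68.9% of all genes. Among the 7 markers, 6 were lower in STR, with a median of -2.17 in wild-type and -2.27 in Igf2enh-/- mice. Their part in the result was not tested.

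**Figure D4:**
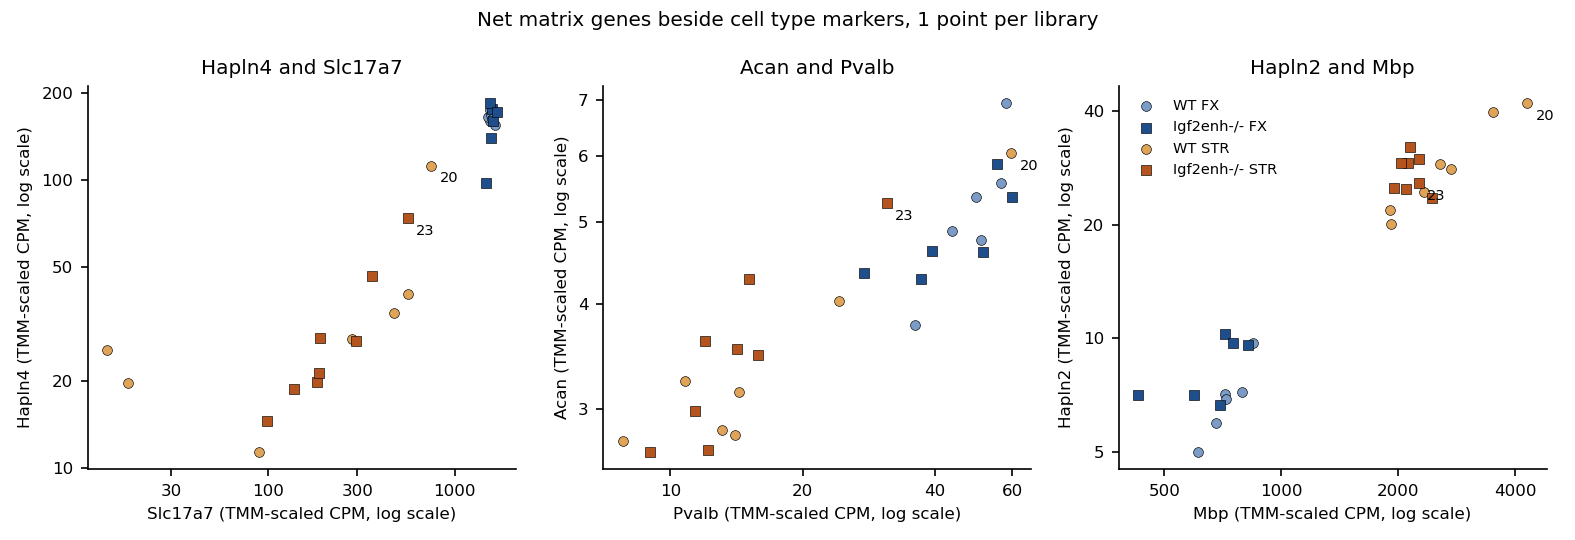
TMM-scaled CPM of 3 net matrix genes against a cell type marker in each of the 27 libraries (log axes), with STR libraries 20 and 23 marked. Hapln4 is plotted against Slc17a7, Acan against Pvalb and Hapln2 against Mbp, and library 20 lies highest among wild-type STR libraries for all 3 genes and all 3 markers.

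Tenascin-R (Tnr, chr1:159523729-159931729, plus strand), the cross-linker of lecticans, was lower in STR. Its levels in wild-type mice were 162, 174 and 182 CPM in FX and 113, 130 and 172 CPM in STR, with 6 of 7 STR libraries under the FX range and library 26 inside it. The Igf2enh-/- groups had 175, 182 and 201 CPM in FX and 105, 132 and 155 CPM in STR, without overlap. The log2 fold change was -0.37 (SE 0.0837, adjusted p = 0.000376) in wild-type and -0.48 (SE 0.0808, adjusted p = 9.52e-06) in Igf2enh-/- mice. Library 26 was among those above 300 CPM of Slc17a7, and without all 5 of them the values were -0.51 and -0.54. In both genotypes the STR libraries above 300 CPM had more Tnr (139 to 172 and 153 to 155 CPM) than those at or under it (113 to 130 and 105 to 147 CPM).

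Hapln3 (chr7:79117027-79133173, minus strand), the neighbour of Acan and the widely expressed member of the link protein family, was not on the list of 8, and no difference between regions was detected. It had 1.84 ± 0.391 CPM in wild-type FX (SD, n = 6) and 2.06 ± 0.399 in wild-type STR (n = 7), a log2 fold change of 0.16 (SE 0.153, adjusted p = 0.359), and one of -0.13 (SE 0.148, adjusted p = 0.449) in Igf2enh-/- mice. Within pairs of neighbours, the level of the link protein per kb relative to its lectican went from 0.0409 ± 0.0108 in wild-type FX to 0.148 ± 0.0320 in wild-type STR for Hapln2 over Bcan and from 1.15 ± 0.0762 to 0.342 ± 0.283 for Hapln4 over Ncan. For Hapln1 over Vcan it went from 3.72 ± 0.419 to 1.94 ± 0.242. Each of these pairs had non-overlapping ratios between the regions in wild-type mice, while Hapln3 over Acan overlapped (0.796 ± 0.158 and 1.39 ± 0.444).

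No difference between genotypes was detectable for the 8 genes in either region. None passed between genotypes in FX, where 53 of 13936 genes (0.38%) did, nor in STR, where 5 of 13875 (0.036%) did. Counts were also 0 of 8 with edgeR's likelihood ratio test, DESeq2 and limma-voom in both regions. At an unadjusted p under 0.05, 3 of 8 lay in FX (Bcan, Hapln2 and Tnr) and 2 of 8 in STR (Bcan and Ncan) with the quasi-likelihood test, next to 13.5% and 10.0% of all genes. By the likelihood ratio test these were 2 and 1, by DESeq2 3 and 2, and by limma-voom 2 and 2. Median log2 differences of the 8 genes were -0.09 in both regions, with 6 of 8 below 0 in each, against 0.00 over all genes.

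In FX the largest estimate belonged to Hapln2, at 0.26 (SE 0.0963, 95% confidence interval 0.05 to 0.47, adjusted p = 0.256). The wild-type libraries had 5.00 to 9.71 CPM and the Igf2enh-/- libraries 6.67 to 10.3 CPM, with 2 of the 6 above every wild-type library. Tnr followed with 0.11 (SE 0.0419, interval 0.02 to 0.20, adjusted p = 0.267), and 3 of 6 Igf2enh-/- libraries lay above the wild-type range. Bcan was at -0.10 (SE 0.0471, adjusted p = 0.369), with 3 of 6 Igf2enh-/- libraries below every wild-type library. All 12 oligodendrocyte markers had estimates below 0 in the same comparison (median -0.18, 0 passed), that of Mbp being -0.14, whereas Hapln2 was above 0. Igf2enh-/- library 1 stood apart from its group in these markers, which summed to 1058 CPM there and to 1590 to 2251 CPM in the other 5 libraries, with Mbp at 428 CPM against 597 to 823 CPM. Its part in the marker estimates was not tested. The other 5 genes lay between -0.10 and -0.04, and the interval of each included 0. Single libraries moved these small values: Hapln4 was at 0.02 without Igf2enh-/- library 1, Acan at -0.02 without wild-type library 4, and Ncan at -0.02 and Vcan at -0.04 without Igf2enh-/- library 7.

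In STR Bcan had the smallest p of the 8. Its wild-type libraries ran from 249 to 310 CPM and its Igf2enh-/- libraries from 236 to 261 CPM, 7 of the 8 below every wild-type library. The log2 fold change was -0.14 (SE 0.0458, 95% confidence interval -0.24 to -0.04, adjusted p = 0.342), and the adjusted p ran from 0.157 to 0.999 over the alternatives that kept or dropped groups of libraries or changed the test. Ncan was at -0.10 (SE 0.0454, adjusted p = 0.476), with 3 of 8 Igf2enh-/- libraries under the wild-type range. For Hapln4 the spread over libraries limited the precision, with an estimate of -0.29, an SE of 0.401 and an interval from -1.14 to 0.57. Without library 20 the estimate was 0.16, and without library 23 it was -0.52, so its sign rests on single libraries. The remaining 5 genes had estimates from -0.12 (Hapln1) to 0.05 (Acan), and the intervals of all included 0.

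The genotype effect was not shown to differ between regions for any of the 8 genes (0 of 8 with an adjusted p under 0.05, as for 0% of the 13414 genes, in edgeR's quasi-likelihood test). At an unadjusted p under 0.05 the count was 0 of 8 by that test, the likelihood ratio test, DESeq2 and limma-voom. Hapln2 had the smallest p, with a difference of -0.33 (SE 0.206, 95% confidence interval -0.75 to 0.10, adjusted p = 1.00). The widest interval was that of Hapln4, from -1.20 to 0.82. The region contrasts of the 2 genotypes use different libraries, and each gene had the same sign in both.

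Across the 27 libraries, after the mean of each group was taken off, the genes most like each member by Pearson correlation of log2 CPM were as follows, out of 13414 genes. For Acan they were Pvalb (0.87), which encodes parvalbumin, Ank1 (0.87) and Vamp1 (0.86). Library 20 had the highest STR level of Acan (6.05 CPM), Pvalb (59.7 CPM), Ank1 (90.9 CPM) and Vamp1 (197 CPM). Hapln4 was most like Osbpl1a (0.97), Coro6 (0.96) and Pitpna (0.96), and Tnr most like Ank2 (0.94), Plxna4 (0.93) and Ttc3 (0.92). Hapln2 was closest to Anln (0.85), Myrf (0.84), the transcription factor of myelin genes, and Pacs2 (0.83). Bcan went with Gpr37l1 (0.89), an astrocyte receptor, Metrn (0.87) and Cldn10 (0.84), and Hapln1 with Itga6 (0.82), Arhgap5 (0.80) and Lims1 (0.79). For Vcan the closest named genes were Trp53inp1 (0.78) and Rev3l (0.76), and for Ncan Sardh (0.77). Library 20 also had the highest STR level of Hapln4, Osbpl1a, Hapln2, Anln, Myrf, Bcan, Gpr37l1, Metrn and Cldn10. The part of that library in these correlations was not tested. All genes of a library share its tissue piece, dissection and depth, and the values are descriptions.

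Among the 8 genes themselves, Acan and Hapln4 were the most alike pair (r = 0.76 over 27 libraries, group means taken off), followed by Acan and Bcan (0.69) and Hapln4 and Tnr (0.54). Hapln2 and Tnr lay at the other end (-0.33). Library 20 had the highest level of 4 of the 8 genes in its group. Pvalb itself was at 27.6 to 59.8 CPM in FX and 7.79 to 59.7 CPM in STR, with 59.7 CPM in library 20, where Acan was 6.05 CPM, and 31.1 CPM in library 23, where Acan was 5.27 CPM. The list of 12 parvalbumin interneuron markers includes genes also used by striatal projection neurons (Gad1, Gad2, Tac1). All 12 passed between regions in wild-type and 11 in Igf2enh-/- mice, beside 67.7% and 68.9% of all genes. Of these markers, 7 and 6 passed as lower in STR, and 5 passed as higher in each genotype. None was at 0 in any group, and their sum was 1226 to 1646 CPM in FX and 1857 to 2269 CPM in STR. Their part in the level of Acan was not tested.

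Chondroitin sulfate, which forms the sugar chains of the lecticans, is built by a set of enzymes of which 22 were listed. Between regions 20 were tested and 17 passed in each genotype (85.0%, against 67.7% of all genes in wild-type and 68.9% in Igf2enh-/- mice), 7 higher and 10 lower in STR, with a median log2 difference of -0.12 in wild-type and -0.13 in Igf2enh-/- mice. Of the 4 genes with the smallest p in each genotype, those higher in STR were Ust (22.2 ± 0.986 CPM in wild-type FX, 41.8 ± 5.13 in wild-type STR, log2 fold change 0.92), Chst11 (57.8 ± 2.99 and 114 ± 20.6 CPM, 0.99), Chst3 (2.27 ± 0.330 and 4.84 ± 0.908 CPM, 1.08) and, in Igf2enh-/- mice, Chst15 (53.7 ± 6.41 and 109 ± 13.4 CPM, 1.01). Ust adds sulfate to the uronic acid, Chst11 and Chst3 to position 4 or 6 of N-acetylgalactosamine, and Chst15 a further sulfate to sugars that already carry one. The lower ones were B4galt7 (21.8 ± 1.38 and 13.8 ± 2.27 CPM, -0.66) in wild-type and B3gat3 (107 ± 8.36 and 65.9 ± 6.98 CPM, -0.70) in Igf2enh-/- mice, which both add sugars of the linker that joins the chain to the protein. Means of the other genotype went the same way for Chst15 (wild-type, 52.6 ± 5.37 and 101 ± 20.3 CPM), B3gat3 (wild-type, 103 ± 3.08 and 69.9 ± 12.1 CPM) and B4galt7 (Igf2enh-/-, 20.6 ± 0.770 and 13.4 ± 1.53 CPM). None of the genes passed between genotypes, the smallest p belonging to Chst11 in FX (0.18, adjusted p = 0.244) and Chpf2 in STR (-0.12, adjusted p = 0.515).

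Of 15 genes of hyaluronan metabolism 9 were tested between regions, and 5 passed in wild-type (3 higher, 2 lower) and 6 in Igf2enh-/- mice (3 higher, 3 lower), beside 67.7% and 68.9% of all genes. Cemip, a protein needed to break down hyaluronan, fell from 34.9 ± 2.75 to 9.89 ± 3.93 CPM in wild-type mice (log2 fold change -1.84, adjusted p = 5.14e-09). Has3, a hyaluronan synthase, rose from 2.44 ± 0.326 to 4.84 ± 0.731 CPM (0.98), and Tnfaip6, a hyaluronan-binding protein, from 3.34 ± 0.762 to 8.90 ± 3.27 CPM (1.39). Stab1, a scavenger receptor, was lower (-0.60). Of the proteases that cut the matrix and their inhibitors, 9 of 17 tested passed in each genotype (52.9%, below the share of all genes; 7 higher, 2 lower), with medians of 0.17 and 0.20. Adamts4 and Adamts5, which cleave lecticans, rose in wild-type mice from 8.62 ± 0.794 to 28.3 ± 8.42 CPM (1.71) and from 2.06 ± 0.373 to 4.39 ± 1.15 CPM (1.10), and Adamts15, of the same family, fell from 7.13 ± 1.2 to 3.29 ± 0.830 CPM (-1.12). Smaller rises were those of Mmp16 in wild-type (0.36) and of the inhibitor Timp3 in Igf2enh-/- mice (0.26). Means of the other genotype were also higher in STR for Mmp16 (Igf2enh-/-, 12.9 ± 0.697 and 15.2 ± 2.22 CPM) and Timp3 (wild-type, 100 ± 7.71 and 127 ± 16.2 CPM).

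**Figure D5:**
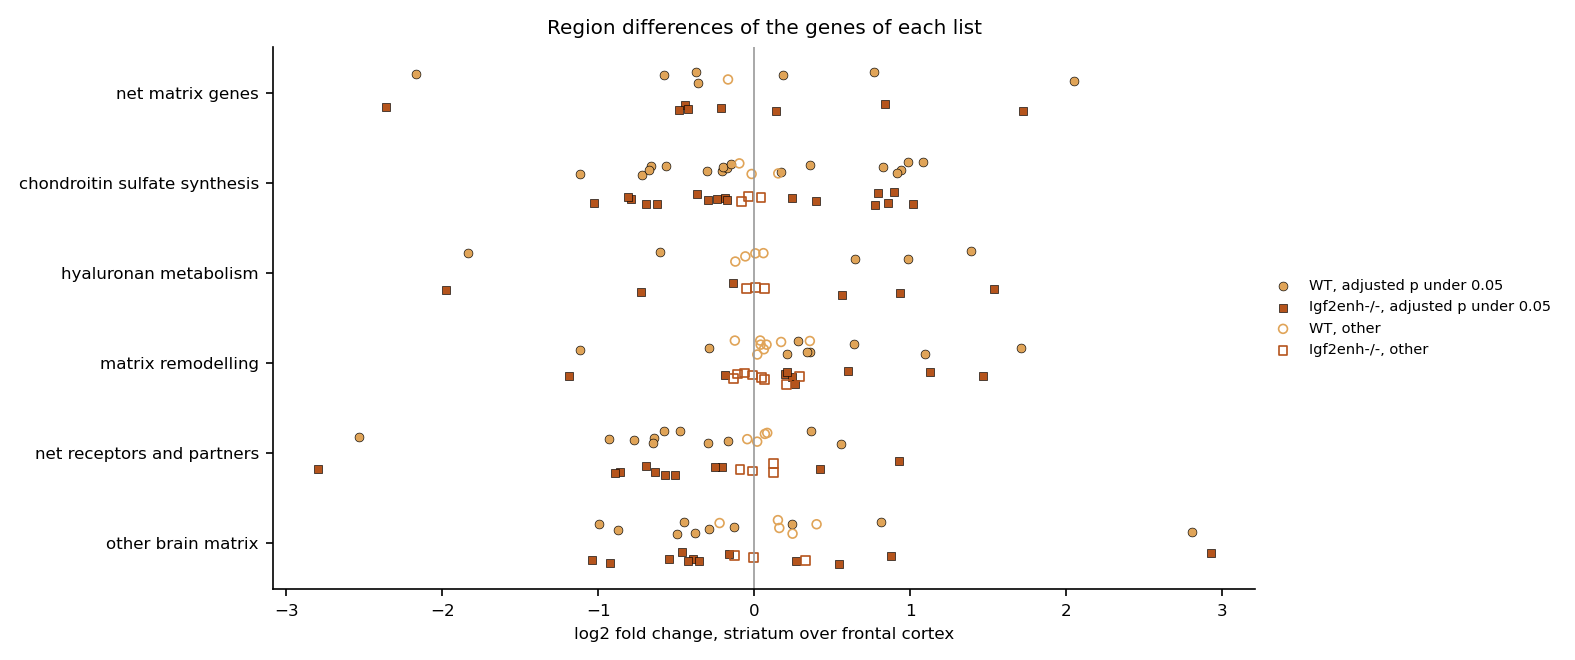
Log2 fold change of STR over FX (horizontal axis) of every tested gene of the 8 net matrix genes and of 5 lists of related genes, in wild-type and Igf2enh-/- mice. Filled points have an adjusted p under 0.05 and open points do not, and points of each list lie on both sides of 0.

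Of 15 receptors and partners of nets tested, 11 passed in each genotype (73.3%, near the share of all genes), 2 higher and 9 lower in STR, with medians of -0.30 and -0.25. Over all genes, 33.2% passed as lower in wild-type and 34.5% in Igf2enh-/- STR. The chondroitin sulfate receptors Rtn4rl1 (80.7 ± 2.42 and 47.3 ± 4.79 CPM in wild-type mice, -0.77) and Ptprs (640 ± 14.6 and 412 ± 73.4 CPM, -0.64) were lower, as were the adhesion molecule Nrcam (-0.65) and Nptx2 (-0.93), a pentraxin that gathers AMPA receptors on interneurons. Sema3a, a guidance molecule held by nets, was higher in Igf2enh-/- STR (20.4 ± 2.46 and 38.8 ± 7.22 CPM, 0.93). Its wild-type means went the same way (21.5 ± 1.32 CPM in FX and 31.5 ± 4.58 in STR). Of 15 other matrix genes of the brain, 10 passed in wild-type (3 higher, 7 lower) and 12 in Igf2enh-/- mice (4 higher, 8 lower). This is 66.7% and 80.0% of the list, against 67.7% and 68.9% of all genes. The testicans Spock3 (83.8 ± 4.55 and 584 ± 167 CPM, 2.80) and Spock1 (426 ± 32.9 and 215 ± 27.2 CPM, -0.99) went opposite ways in wild-type mice, and Cspg5 was lower (-0.38) and Sparc higher (0.82).

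Between genotypes no gene of these lists passed in either region. The smallest p values were those of Adamts20 in FX (14.4 ± 0.816 CPM in wild-type and 11.7 ± 1.22 in Igf2enh-/- mice, log2 fold change -0.30, adjusted p = 0.0514) and Mmp14, a membrane-bound matrix protease, in STR (8.24 ± 0.863 and 10.8 ± 1.88 CPM, 0.41, adjusted p = 0.174). The others were Cemip (0.08) in FX and Has3 (-0.17) in STR for hyaluronan, Rtn4r (-0.11) and Sema3a (0.30) for receptors and partners, and Tnxb (-0.46) and Cspg4 (-0.20) for other matrix genes. For the difference of the genotype effect between regions, also with 0 passing, they were Chst3 (-0.28), Stab1 (-0.12), Plat (-0.13), Sema3a (0.37) and Reln (0.30).

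Markers of other cells bear on these bulk levels and were followed alongside. Over all genes, 67.7% passed between regions in wild-type and 68.9% in Igf2enh-/- mice. Those higher in STR were 34.5% in each genotype, and those lower 33.2% and 34.5%. Astrocyte markers, which stand beside Bcan, passed in 3 of 12 cases in wild-type (1 higher, 2 lower in STR) and 7 of 12 in Igf2enh-/- mice (1 higher, 6 lower), with medians of -0.07 and -0.12, and Bcan was slightly higher. All 8 medium spiny neuron markers tested were higher in STR in both genotypes, with medians of 4.98 and 5.18. Meningeal fibroblast markers were lower in STR (7 of 7 tested in both genotypes, medians -1.47 and -1.55). Microglia markers were higher in 8 of 10 and 5 of 10 cases, and endothelial markers in 2 of 10 in each genotype. Of the choroid plexus markers, 2 of 12 were tested and 0 passed in wild-type and 1 in Igf2enh-/- mice. Between genotypes no marker of any of these 10 cell type lists passed in either region. The part of these cells in the levels of the 8 genes was not tested.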

How the data were processed

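Brain tissue was profiled by RNA-seq as 75 bp single-end reads in 27 mouse libraries. Per the labels and the paper's methods, reads went through Trim Galore 0.5.0 and were then aligned by STAR to GRCm38, and the authors deposited raw counts per gene in 1 table per region, without normalization or filter. The strand setting of the counting is not given in the sources used here. The human data and the proteome of the study were not used here.

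Symbols were matched by Ensembl identifier for 32688 of 52636 identifiers, and coordinates, strands and promoters come from RefSeq (GRCm38.p6). A gene entered a fit where no library had less than 1 CPM. TMM factors scaled the counts, and edgeR 4.0.16 (R 4.3.3) gave quasi-likelihood F-tests, adjusted after Benjamini and Hochberg over all genes tested, with a threshold of 0.05. Genotype was tested within each region with sex as a term. Regions, and the difference of the genotype effect between them, were tested in 1 fit of all 27 libraries with the 4 group means and sex. All 8 genes passed the filter in every fit. Levels per kilobase use exon lengths of GENCODE vM1 (NCBIM37), and correlations use log2(CPM + 0.5). The counts were made on GRCm38 with a later GENCODE release, so lengths of single genes may differ. Orders, shares and ratios between genes depend on these lengths. The test was tried on simulated counts with known changes.

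Alternatives were edgeR's likelihood ratio test (which the study names), limma-voom (limma 3.58.1) and DESeq2 1.42.0, its size factors or total counts as the scaling, filterByExpr or no filter, models without sex, each sex alone, other sets of libraries in the fit, each library left out in turn, and libraries 15 and 20 left out together. Leaving out the STR libraries above 300 CPM of Slc17a7 was chosen after seeing the data. The 8 genes and the 15 lists (5 of related genes, 10 of cell type markers; 205 genes in all with the 8, of which 1 was without an identifier) were chosen with earlier results of these data known. Named genes are the 8, Hapln3, up to 4 genes of smallest p that passed in each list of related genes and comparison (or the 1 of smallest p), the 3 most like each of the 8 (those with a symbol), and a few markers. Figures come from matplotlib 3.10.9 under Python 3.11.15.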

Additional observations from a re-analysis of the deposited data

Results flagged for a closer look

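Each of the 8 genes was examined in each of the 4 groups for a library whose gap to its nearest neighbour was a large part of the range of the group. This held in 3 of 32 cases, and chance alone gives about 1 in 20. In wild-type STR, library 20 had 6.05 CPM of Acan, with the next library at 4.03 CPM, a gap of 0.609 of the range. The same library had 112 CPM of Hapln4, with the next at 40.2 CPM, a gap of 0.714 of the range. It also had the most Slc17a7 (750 CPM), Pvalb (59.7 CPM) and Mbp (4287 CPM) and the least Drd1 (143 CPM) and Ppp1r1b (914 CPM) of all STR libraries. In Igf2enh-/- STR, library 17 had 261 CPM of Bcan, with the next at 247 CPM, a gap of 0.558 of the range.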

How the results depend on the processing

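No paired analysis was possible because each library has a number of its own and the labels do not pair the libraries of a mouse. Of 1592 values under alternatives, 18 were marked as changed. These were 2 of the 248 counts of genes that passed and 16 of the 1344 values of single genes. Of the 16, 6 came to pass and 10 no longer passed. No value of a single gene that passed changed sign. A count was marked only beyond a fixed ratio to that of the report, so smaller moves are not among the 2. Between regions, such moves of the count went from 7 up to 8 in wild-type mice and from 8 down to 6 in Igf2enh-/- mice (males alone). In males alone, 3 of the 8 genes passed between regions in wild-type mice, in place of 7, and 1 with a log2 difference of at least 1, in place of 2. There Acan (-0.22, adjusted p = 0.536), Bcan (0.26, 0.0535), Hapln4 (-1.83, 0.0578) and Tnr (-0.36, 0.0656) did not pass. There 5415 in place of 9086 of all genes passed, against 7857 in wild-type females alone, and the cause was not tested. In Igf2enh-/- mice, Acan (-0.23, adjusted p = 0.341) and Hapln1 (-0.08, 0.479) did not pass in males alone and Bcan (0.15, 0.0680) in females alone, nor did Bcan (0.08, 0.204) in wild-type females. Hapln1 in wild-type mice is close to the threshold: it passed in females alone (-0.27, adjusted p = 0.0229), without libraries 15 and 20 (-0.19, 0.0380), without the STR libraries above 300 CPM of Slc17a7 (-0.21, 0.0451), and without FX library 6 (0.0488), STR library 20 (0.0298) or STR library 22 (0.0214). In Igf2enh-/- mice it did not pass without FX library 3 (-0.16, adjusted p = 0.0700), nor did Acan without FX library 5 (-0.36, 0.0748). With each library left out in turn, 7 to 8 genes passed between regions in both genotypes. Between genotypes 0 of the 8 passed under every alternative, although counts over all genes ranged from 2 to 459 in FX (53 in the report, 232 by the likelihood ratio test, 242 by DESeq2, 459 without a filter, 20 in the fit of all libraries, 2 in females alone, 8 to 99 with 1 library left out) and from 1 to 112 in STR (5 in the report, 56 by the likelihood ratio test, 112 by DESeq2, 63 in the fit of all libraries, 13 with filterByExpr, 10 without a filter, 1 in females alone, 3 to 8 with 1 library left out, 3 by limma-voom, without sex as a term or without the STR libraries above 300 CPM of Slc17a7). The other scalings moved no difference of the 8 genes by more than 0.03 on the log2 scale. Likeness without taking off group means shared 2 of the 3 genes for Acan, Hapln2 and Tnr, 1 for Hapln4 and 0 for Bcan, Ncan, Vcan and Hapln1. Low counts limit Acan, and the spread over STR libraries limits Hapln4. Regions were also deposited as separate tables, and a technical difference between them cannot be told apart from region.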
